A study of Mus musculus with 92 samples.

Results

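The mitochondrial ribosomal proteins are the nuclear-encoded proteins of the ribosome inside mitochondria, and their genes were followed here in quadriceps muscle of 92 mice. The members were the genes whose symbol begins with Mrpl or Mrps and a number, counted once per Ensembl gene, with processed pseudogenes left out. That gave 78 of the 13441 genes in the table, 49 with Mrpl names for the large subunit and 29 with Mrps names for the small subunit. All animals were DOz mice, a Diversity Outbred stock, so that no animal has the genome of another. They were about 18 to 20 weeks old, had eaten standard chow throughout, and received no other treatment that the labels name. The labels used here give this 1 group and name neither genotype nor sex, so every comparison below is between genes or across animals. The p-values set a slope or a difference between series of animals against the spread between animals. The study's title is about ceramides of muscle with very long chains and insulin resistance.

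Mitochondria keep a small genome whose messenger RNAs encode core subunits of the respiratory chain and the ATP synthase, and the mitochondrial ribosome translates only these messages. Its proteins are made in the cytosol from nuclear genes, imported, and assembled on ribosomal RNAs transcribed from the mitochondrial genome. The remaining oxidative phosphorylation subunits are nuclear, so a complete complex needs both supplies, and skeletal muscle is rich in them. A few members have further roles or another place than the name says: Mrps18a and Mrps30 sit in the large subunit, Mrpl12 also binds the mitochondrial RNA polymerase, Mrpl58 is a peptidyl-tRNA hydrolase built into the ribosome, and Mrps36 is known as a subunit of the 2-oxoglutarate dehydrogenase complex.

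The muscle identity of the tissue was clear in every library. The 10 skeletal muscle markers, among them Acta1, Ckm and Ttn, had means between 10.60 and 15.90 on the log2 scale, and none fell under 9.06 in any animal. Values are the authors' log2 levels on a per-million scale, and their antilogs summed to 898071 to 1140760 per library. The number of reads behind each library is not given in the sources used here, so no counting error is stated. Libraries differed in the balance of short and long transcripts: the median log2 value of the 3264 genes with transcripts of at most 1861.5 bases minus that of the 3313 genes of at least 4482 bases ran from -1.18 to -0.35, with a median of -0.89. This difference bears on the members, since 50 of the 78 have a transcript in the short class, and values that allow for it are given beside many of the main ones. Numbers in the sample titles, whose meaning is not stated, form 5 series with jumps of over 30 between them. These series, of 33, 14, 21, 11 and 13 animals, are used below as title-number blocks.

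Promoter sequences are shown for the members where they could be read cleanly. RefSeq promoter windows, which run from 250 bases before to 50 bases after the start, matched 69 of the 78 members by symbol, with 75 windows on the GRCm38.p6 build. Of the 66 members with 1 window, 16 had no annotated exon in the 150 bases before the start, and 4 of these hold a searched motif there. Those 4 are printed 5′ to 3′ on the gene's strand, with the ETS core motif in capitals, together with Mrps14, the member farthest above the SD trend described below, whose stretch holds no searched motif.
Mrpl58, chr11:115403602-115403751, plus strand: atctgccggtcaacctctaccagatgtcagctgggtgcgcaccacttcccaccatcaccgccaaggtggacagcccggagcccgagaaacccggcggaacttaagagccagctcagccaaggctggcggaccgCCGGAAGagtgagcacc
Mrpl52, chr14:54426759-54426908, plus strand: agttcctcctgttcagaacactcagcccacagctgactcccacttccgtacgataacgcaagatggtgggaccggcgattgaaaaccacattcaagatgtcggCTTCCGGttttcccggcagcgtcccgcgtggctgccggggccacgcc
Mrpl34, chr8:71464776-71464925, plus strand: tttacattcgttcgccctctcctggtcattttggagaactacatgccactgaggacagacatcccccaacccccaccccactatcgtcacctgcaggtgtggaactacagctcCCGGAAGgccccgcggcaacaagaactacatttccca
Mrps22, chr9:98601680-98601829, minus strand: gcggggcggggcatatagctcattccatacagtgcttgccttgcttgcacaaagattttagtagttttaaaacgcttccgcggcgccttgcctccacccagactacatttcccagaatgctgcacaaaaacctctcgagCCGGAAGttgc
Mrps14, chr1:160195065-160195214, plus strand: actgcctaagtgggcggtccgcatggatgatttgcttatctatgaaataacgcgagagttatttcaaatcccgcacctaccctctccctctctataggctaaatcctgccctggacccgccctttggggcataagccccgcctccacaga

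Each search covered both strands of the 300-base window. The letters CCGGAAG, the core bound by ETS factors such as GABPA, were in 34.7% of the 75 member windows, against 16.6% of the 13002 windows of genes in the table. The YY1 letters AAGATGGCG were in 10.7% of member windows and 2.85% of those of the table's genes. The palindrome bound by NRF1 was in 4.0% and 1.93%, respectively, and at least 1 of the 3 motifs was in 46.7% and 20.3%. These motifs share no full match with each other, and a match is a description of letters only. For the 26 members with the ETS letters, the median correlation with the other members was typically 0.298, and for the 43 without them 0.289.

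All 78 members were expressed in every animal. Their mean log2 values ran from 3.17 for Mrps6 to 7.27 for Mrpl42, with a median of 4.71 (3.48 over all genes), and the lowest value of any member in any animal was 2.55, for Mrpl27. Whether these values were already divided by length is not stated. Undivided values would give each gene's share of a library and no order of transcript abundance. Summed over the 78 genes, the members made up 2072 per-million units in the lowest animal, 2471 in the median animal and 3149 in the highest. The highest animal therefore stood 1.52 times above the lowest, and the coefficient of variation of the sum was 7.22%. The 5 members with the largest deposited values held 19.5% of it.

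**Figure D1:**
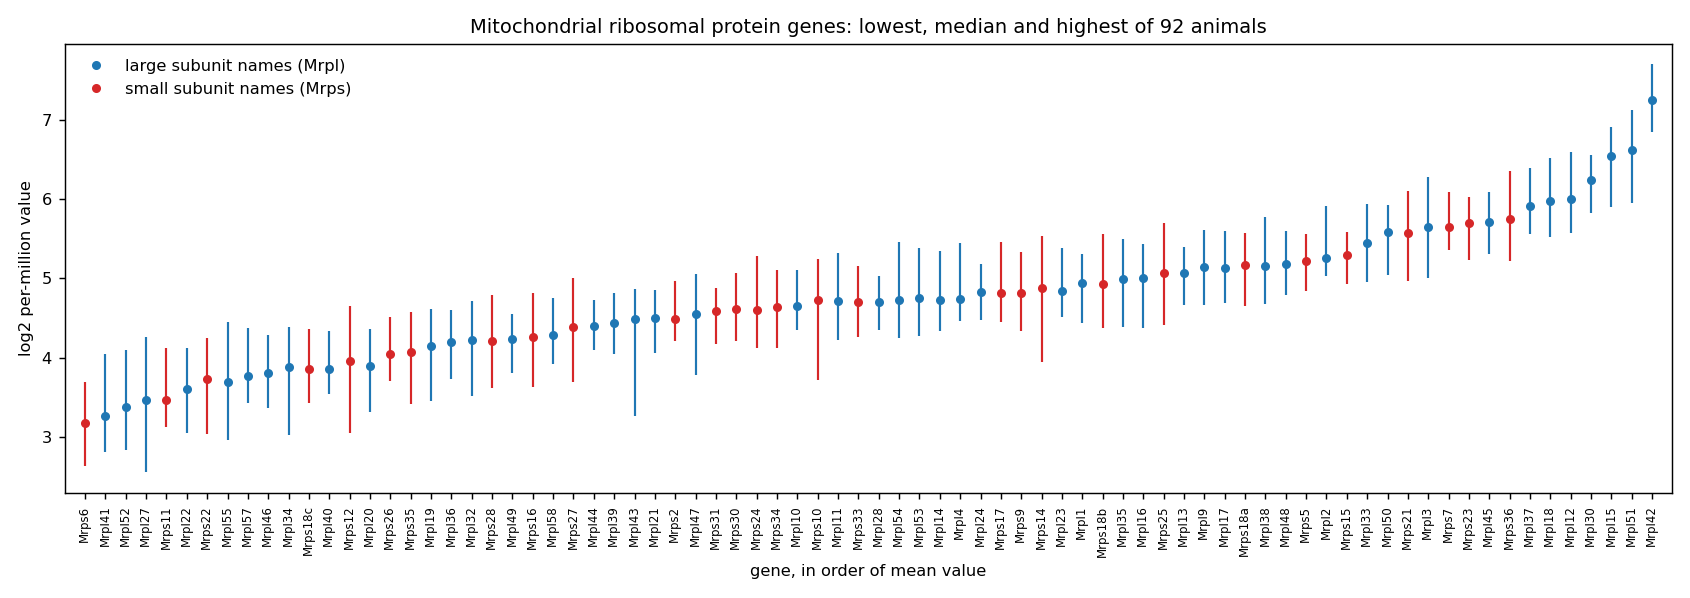
Log2 per-million value (vertical axis) of the 78 mitochondrial ribosomal protein genes in order of mean value (horizontal axis); each point is the median of 92 animals and each line runs from the lowest to the highest animal, blue for Mrpl and red for Mrps names. Large and small subunit names are mixed along the order, from Mrps6 to Mrpl42, and the lines of Mrps14, Mrps10, Mrpl43 and Mrpl27 are among the long ones.

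Deposited values that were already divided by length would not be comparable after a further division, and no header settles this. To order the genes by level, values were divided by transcript length, giving the log2 per-million-per-kilobase scale. On it Mrpl42 was the highest at 7.86, followed by Mrps21 at 6.60, Mrpl30 at 6.26, Mrps36 at 6.25 and Mrpl18 at 5.70. Mrpl19 was the lowest at 1.80, with Mrps26 at 1.96, Mrps35 at 2.0, and Mrpl57 and Mrpl17 both at 2.27. The upper end of this order was firmer than the lower end. With coding length in place of transcript length, 4 of the top 5 remained among the top 5, but only 1 of the bottom 5 remained among the bottom 5. Over the 78 members the orders from the transcript and coding lengths had a Spearman rho of 0.541, so the ranking moved with the length used. The paralogs Mrps18a, Mrps18b and Mrps18c, which encode alternative forms of a related protein placed at different sites of the particle, stood at 5.34, 4.83 and 4.52 on the same per-kilobase scale.

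Most members varied little from animal to animal. The median SD of a member was 0.19 on the log2 scale, against 0.32 over all genes. A trend of SD on mean level, fitted over all genes, was used to allow for level. Against it 64 of the 78 members had a smaller SD than genes of the same level, where 51.02% of all genes do, and the median log2 ratio of a member's SD to the trend was -0.34. Mrps31, at -0.86, Mrpl44, at -0.82, and Mrps2, at -0.76, lay farthest under the trend. Mrpl44, a large subunit protein with a ribonuclease fold, ranged from 4.09 over a median of 4.40 to 4.72, and Mrps31 from 4.17 over 4.59 to 4.87. Both spans are under 1 log2 unit across 92 outbred animals.

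The other 14 members were more variable than the trend. Mrps14 (ENSMUSG00000058267, chr1:160195215-160202170 on mm10, plus strand), a small subunit protein, led them with a log2 ratio of 0.55. Its values ran from 3.94 over a median of 4.88 to 5.54, a range of 1.60. Mrps25 followed at a ratio of 0.45 (lowest 4.42, median 5.06, highest 5.70), then Mrps10 at 0.32 (3.72, 4.72 and 5.24), Mrpl3 at 0.30 (5.0, 5.65 and 6.28) and Mrpl43 at 0.29 (3.26, 4.49 and 4.86). In Mrps10, Mrpl43 and Mrps14 the lowest animal lay farther from the median than the highest. Exons of Mrps25 overlap those of Nr2c2 and exons of Mrpl43 overlap those of Twnk, each on the opposite strand. Whether the counting used strand is not given in the sources used here, so reads of such partners cannot be told apart.

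No member split the animals into separate levels. With the animals ordered by level, a step of 1 log2 unit or more was sought that left 5 or more animals on either side. It was found in 74 of the 13441 genes of the table and in 0 of the 78 members. Such steps are rare over all genes, so 0 among the members is near the share of the table. The widest gap of a member was 0.17, in Mrpl43, between 3.86 and 4.04, with 5 animals below it, 3 in the first and 2 in the third block. In Mrps14 a gap of 0.13 between 4.39 and 4.52 set 12 animals apart on the low side, and these came from 4 of the 5 blocks. The next widest were in Mrpl1, at 0.10, Mrps22, at 0.10, and Mrps33, at 0.09. Gaps of this size are smaller than the members' own SD and are given as a description only.

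**Figure D2:**
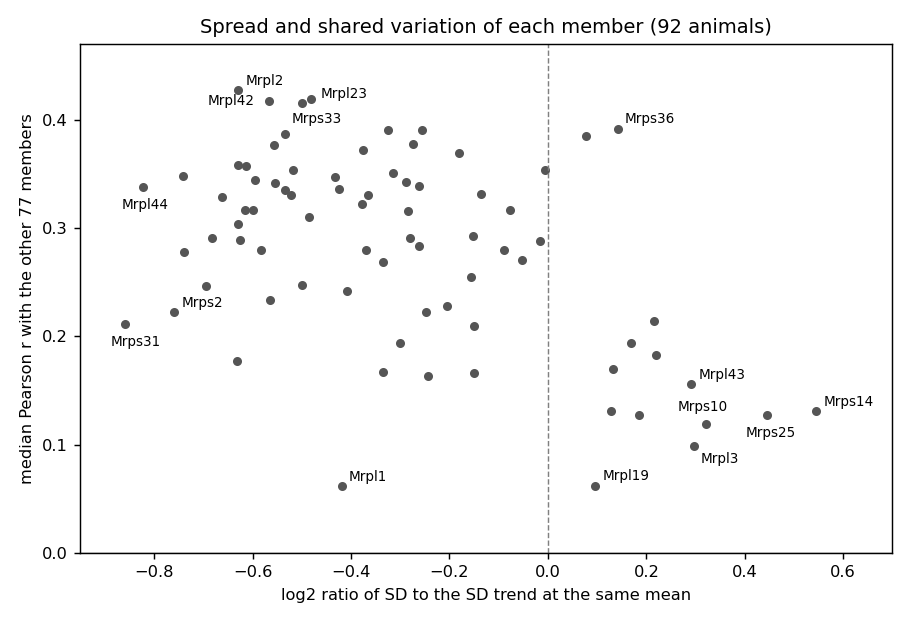
Spread of each member, as its SD over the trend's SD at the same mean on a log2 scale (horizontal axis), against its median Pearson r with the other 77 members (vertical axis), over 92 animals; each point is 1 gene and the dashed line marks a spread equal to the trend. Mrps14, Mrps25, Mrps10, Mrpl3 and Mrpl43 lie far to the right and low, while Mrpl2, Mrpl23, Mrpl42 and Mrps33 lie left of the line and highest.

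The members rose and fell together across animals. Over the 3003 pairs of members the median Pearson r was 0.272, against -0.0015 over all pairs of genes in the table, and 2893 pairs, or 96.3%, had r above 0, against 49.5% of all pairs. The first principal component held 30.5% of the members' standardised variance and the second 4.96%. The large and the small subunit were not separate groups in this respect: the median r was 0.291 within Mrpl names, 0.239 within Mrps names and 0.266 between them, and the mean standardised level of the Mrpl genes followed that of the Mrps genes with r = 0.951 over the 92 animals. Placing Mrps18a and Mrps30 with the large subunit and leaving out Mrps36 gave 0.935. The correlations share the libraries' balance of short and long transcripts. In residuals on that balance the median pair r was 0.131 and the first component 16.3%.

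Every member had a median correlation above 0 with the other 77, and 61 had one above 0.2. Mrpl2 was highest at 0.428, then Mrpl23 at 0.419, Mrpl42 at 0.417, Mrps33 at 0.415 and Mrps36 at 0.392. Mrps36 is thus near the top of a list of ribosomal proteins although the protein is known from another mitochondrial complex. The least connected were Mrpl1 and Mrpl19, both at 0.062, then Mrpl3 at 0.098, Mrps10 at 0.119 and Mrps25 at 0.127. Mrpl1 differs from the other members of this end in that its own spread was small, with a log2 ratio to the trend of -0.42. Mrpl1 had r above 0 with 52 of the other 77 members, and Mrpl2 with 76. Over the 78 genes, the median r fell with excess spread (Spearman rho -0.377) and with transcript length (rho -0.296). These are descriptions across genes, which are not independent replicates.

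The closest pair was Mrpl30 and Mrpl42, both large subunit genes, on chromosomes 1 and 10, with r = 0.727 over 92 animals and between 0.705 and 0.805 in the 5 blocks. Mrpl13 with Mrps34 reached 0.688, Mrpl45 with Mrpl12 0.686, Mrpl57 with Mrpl23 0.648 (0.380 given the balance of short and long transcripts), and Mrpl51 with Mrpl12 0.646. Of these pairs, 1 lies on a single chromosome, Mrpl45 and Mrpl12 on chromosome 11, 23.2 Mb apart. Given the balance of short and long transcripts, Mrpl30 with Mrpl42 had r = 0.616 and Mrpl13 with Mrps34 0.508. Mrpl45 with Mrpl12 then had 0.615 and Mrpl51 with Mrpl12 0.528. The Mrps18 paralogs had r above 0 with each other, at 0.505 for Mrps18a with Mrps18b, 0.379 for Mrps18a with Mrps18c and 0.304 for Mrps18b with Mrps18c. Given the balance of short and long transcripts these were 0.330, 0.188 and 0.0555, so little was left of the last.

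Few of the 3003 pairs had r under 0, and the most negative was a pair on chromosome 17. Mrps10 (chr17:47368887-47381417) and Mrps18a (chr17:46110986-46128910), both on the plus strand and 1.24 Mb apart, had r = -0.328 (Spearman rho -0.345). The pair was chosen for its value, so no test is given. It was -0.418 given the balance of short and long transcripts, -0.551 given the mean of the other members, and between -0.711 and 0.0197 in the blocks. Other pairs were also strongly negative given the mean of the other members: Mrpl54 with Mrps9 at -0.479, Mrpl24 with Mrpl16 at -0.453 and Mrpl3 with Mrpl54 at -0.422. Mrps18a ranged from 4.65 over 5.17 to 5.58 in these animals, a span of 0.93, and Mrps10 had a span of 1.53. Mrpl2 lies between these genes on chromosome 17, 0.517 Mb from Mrps18a and 0.719 Mb from Mrps10, and had r = 0.537 with Mrps18a and 0.114 with Mrps10. By unadjusted r, the next named negative pairs were Mrpl19 with Mrpl33, at -0.230, and Mrpl1 with Mrps17, at -0.142. They lie on different chromosomes and 33.4 Mb apart, respectively. Nearby pairs were only slightly closer on the whole: the 28 pairs within 5 Mb had a median r of 0.310, and the 2815 pairs on different chromosomes 0.271.

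Some members start close to a gene on the opposite strand. For 33 of the 78 the start of such a gene lay within 1000 bases, and both genes of 27 such pairs were in the table. How often other genes have such a neighbour was not worked out, so these counts are a description. Whether the pairs share a promoter was not tested. The median r within these pairs was 0.212, and 21 of 27 had r above 0. Mrpl36 and Ndufs6, a complex I subunit gene, start 29 bases apart and had r = 0.580, although 0.182 given the other members. Mrpl32 and the proteasome gene Psma2 reached 0.546, which stayed at 0.453 given the other members, and Mrpl47 with the complex I gene Ndufb5 reached 0.460 (0.407). Mrps18c followed the helicase gene Helq at 0.449 (0.488) and Mrpl50 followed Zfp189 at 0.397 (0.487). At the other end Mrpl43 and the mitochondrial helicase gene Twnk, 779 bases apart, had r = -0.161. The exons of 20 members overlap those of another gene in the table, Mrpl36, Mrpl43 and Mrpl47 among them, so part of these values may share reads, which was not tested.

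The shared level of the members, their score, is the mean of the 78 standardised genes in units of its SD. It ran from -2.57 to 3.64 across animals, and the second highest was 2.70. The animal at 3.64 also had the highest balance of short over long transcripts, -0.35, and counts of called members without it are given in the closing section. The genes whose levels followed the score most closely, of 11038 non-members with a mean of at least 1, were respiratory chain and ATP synthase genes. Ndufb9 led with r = 0.846, followed by Ndufa6 (0.841), Ndufb7 (0.835), Atp5f1d (0.835), Cox5a (0.834), Ndufa8 (0.821), Micos10 of the crista junction complex (0.820), Ndufa4 (0.817), Ndufs7 (0.815) and Ndufb11 (0.813). Of the 50 closest genes 33 were nuclear oxidative phosphorylation subunits and 3 cytosolic ribosomal proteins. The most negative were Nr2c2 (-0.691), Ncoa2 (-0.675), Secisbp2l (-0.667), Kmt2a (-0.666) and Adam10 (-0.666), of which Nr2c2 has a transcript of 2368 bases and the other 4 belong to the long class. Given the balance of short and long transcripts these 5 genes stood between -0.323 and -0.105.

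Oxidative phosphorylation subunits made by the nucleus are the partners of what the mitochondrial ribosome produces. The members' score followed the score of 81 such genes, picked by name and including the ATP synthase inhibitor Atp5if1, with r = 0.898 (rho 0.871) over 92 animals, 0.873 without the 2 animals farthest from the median, between 0.880 and 0.934 in the 5 blocks, and 0.834 given the balance of short and long transcripts. In a limma fit of each gene's log2 value on that score, with Benjamini-Hochberg adjustment over 13360 genes, 71 of 78 members rose at an adjusted p under 0.05, and 0 fell. Of all genes tested, 21.6% were called, and the rising ones made up 10.4% and the falling ones 11.1% of genes tested. The slopes of all 78 members were above 0, with a median of 0.09 log2 units per SD of the score, against -0.01 over all genes. Short transcripts rose more often than others, at 26.1%, and the balance of short and long transcripts itself had r = 0.629 with the oxidative phosphorylation score. With that balance as a covariate 34 members passed, where 4.06% of all genes did, and all 78 slopes stayed above 0. Of short transcripts, 5.83% rose in that fit. With the cytosolic ribosomal protein score as a covariate 44 passed, where 6.2% of all genes did.

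By p, Mrpl42 came first for the oxidative phosphorylation score, rising by 0.11 ± 0.0094 (SE) log2 units per SD (limma, Benjamini-Hochberg adjusted p = 4.94e-16, n = 92). Its lowest, median and highest values were 6.85, 7.26 and 7.70. Mrpl12, the large subunit protein that also binds the mitochondrial RNA polymerase, rose by 0.13 ± 0.012 (limma adjusted p = 4.03e-15), from a lowest value of 5.57 over 6.01 to 6.60. Mrpl51 rose by 0.15 ± 0.016 (limma adjusted p = 1.17e-12), between 5.95 and 7.12 with a median of 6.61. The direction held in all 5 blocks for 63 members and in at least 4 blocks for 72. The 7 members that did not pass were Mrpl27, Mrps27, Mrps14, Mrps10, Mrpl1, Mrps22 and Mrpl19, with slopes between 0.02 and 0.08 and limma adjusted p between 0.0637 and 0.594. Mrps10, Mrps14, Mrpl1 and Mrpl19 in this group were also named above for wide spread or weak connection to the other members.

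**Figure D3:**
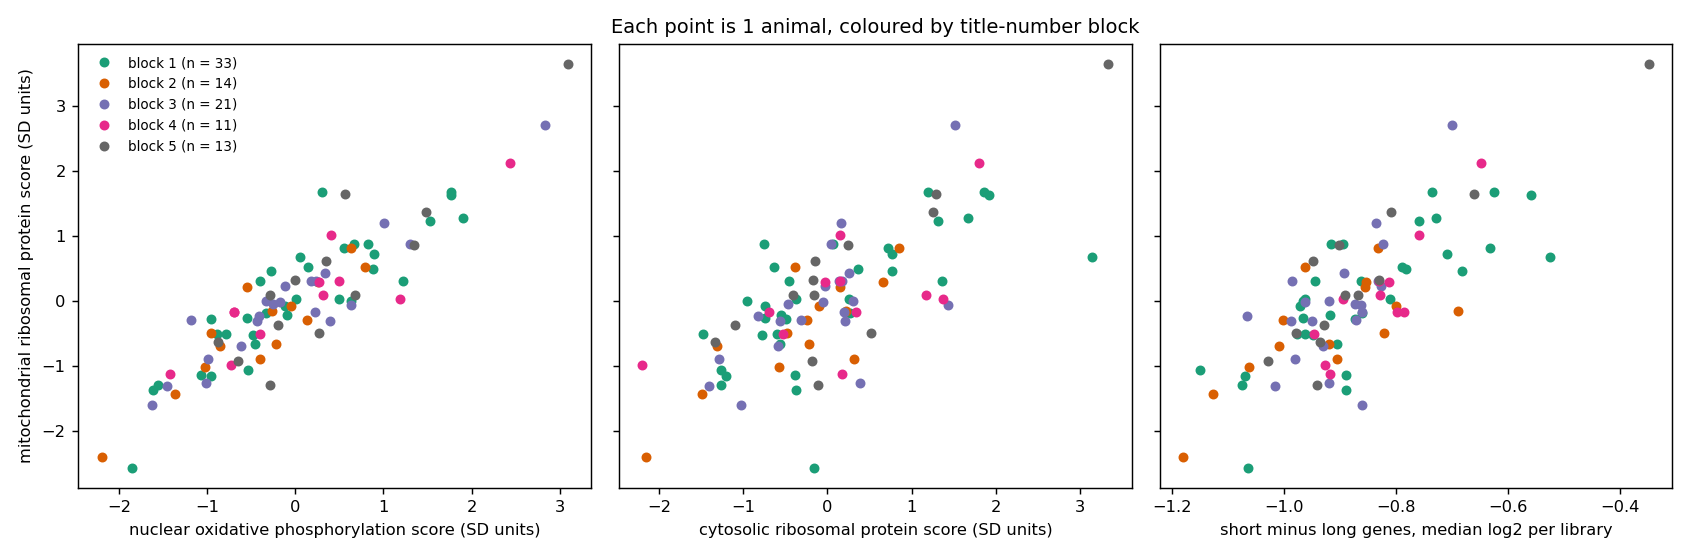
Score of the 78 mitochondrial ribosomal protein genes (vertical axis, SD units) in each of 92 animals, against the nuclear oxidative phosphorylation score (left, SD units), the cytosolic ribosomal protein score (middle, SD units) and the median log2 difference of short minus long transcripts (right); colours mark the 5 title-number blocks. Pearson r is 0.898, 0.724 and 0.769, and the animal at 3.64 is at the upper right of all 3 panels.

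The other parts of the mitochondrial translation machinery followed to different degrees. Of the ribosomal subunits that bear other names, all 5 in the table, Dap3, Ptcd3, Chchd1, Aurkaip1 and Gadd45gip1, rose with the oxidative phosphorylation score, with slopes between 0.08 and 0.11; the sixth on that list, Ict1, is the older symbol of the member Mrpl58. Of 25 genes for ribosome assembly and rRNA modification 16 rose and 0 fell, with the smallest p for Eral1, the chaperone of the small subunit rRNA, at 0.07 ± 0.014 (limma adjusted p = 3.07e-05). Of 15 translation factors 5 rose: Slirp, Oxa1l, Mtif3, Tufm and Tsfm, while the elongation factor Gfm1 had a slope of 0.02 and the messenger RNA-binding Lrpprc one of 0.004, neither past the threshold. Of 20 genes for mitochondrial tRNA charging 6 rose, with the smallest p for Cars2 at 0.12 ± 0.028 (limma adjusted p = 0.000827). Of 10 genes for copying and transcribing mitochondrial DNA 3 rose, the polymerase Polrmt, the single-strand binding protein Ssbp1 and Twnk, while Tfam had a slope of 0.02. None of 10 regulators of mitochondrial genes, Ppargc1a, Nrf1, Gabpa, Esrra and Perm1 among them, passed in limma, and 2 of them, Perm1 (slope 0.09) and Gabpa (slope -0.09), had an unadjusted p under 0.05. These lists are read against the 10.4% of all genes that rose.

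The balance of short and long transcripts moved these counts and changed which genes of the lists passed. With it as a covariate in limma, where 3.38% of all genes rose, the genes that rose were 2 of 5 subunits with other names (Ptcd3 and Chchd1), 2 of 25 assembly genes (Eral1 and Mrm1), 5 of 15 translation factors, 1 of 20 tRNA charging genes (Yars2), 0 of 10 genes for mitochondrial DNA, with 2 at an unadjusted p under 0.05, and 2 of 10 regulators. The 5 translation factors were then Slirp, Mtif3, Tufm, Gfm1 and Lrpprc. Lrpprc had a slope of 0.09 ± 0.017 (limma adjusted p = 0.000139) and Gfm1 one of 0.09 ± 0.022 (limma adjusted p = 0.00817), while Oxa1l, with 0.06, and Tsfm, with 0.01, no longer passed. Among the regulators Perm1, a muscle factor of mitochondrial gene expression, had a slope of 0.24 ± 0.040 (limma adjusted p = 5.62e-06), Esrra passed too, and Gabpa had a slope of 0.06, on the other side of 0 and not past the threshold. Against the members' own score, given the balance, Lrpprc moved from r = -0.0857 to 0.514, Gfm1 from 0.0786 to 0.430, Perm1 from 0.0609 to 0.419 and Gabpa from -0.366 to 0.0592.

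The messenger RNAs that the mitochondrial ribosome translates followed the members' RNA levels less closely than the nuclear oxidative phosphorylation genes did. The score of the 13 mitochondrial messenger RNAs had r = 0.309 (rho 0.253) with the members' score over 92 animals, between 0.167 and 0.596 in the blocks. Given the balance of short and long transcripts it was 0.348, where the oxidative phosphorylation score had 0.834 and the cytosolic ribosomal protein score 0.303. In the limma fit 0 of 78 members and 0% of 13428 genes passed, also with the blocks as a covariate, while 25 of 78 members and 1392 of 13428 genes had an unadjusted p under 0.05 (21 members without the animal at 3.64). No alternative setting gave a member past the threshold. Slopes were above 0 in 75 of 78 members, where 48.7% of all genes had one, with a median of 0.03 log2 units per SD. Mrpl45, which sits at the exit of the ribosome's tunnel and anchors it to the inner membrane, had the smallest p with a slope of 0.05 ± 0.014 (limma adjusted p = 0.143). Mrpl50 with 0.07, Mrpl13 with 0.05 and Mrps2 with 0.05 followed in order of p. None of the translation, assembly, tRNA and mitochondrial DNA lists had a gene past the threshold. The nuclear oxidative phosphorylation genes had 0 of 81 past it and 53 with an unadjusted p under 0.05. On the oxidative phosphorylation score, in turn, 7 of the 13 mitochondrial messenger RNAs rose, where 10.4% of all genes did. With the balance as a covariate 4 rose, where 3.38% of all genes did.

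The ribosome of the cytosol is a separate particle whose proteins come from other genes. Its score of 76 genes had r = 0.724 with that of the members (0.636 to 0.858 in the blocks). In limma, with 30.1% of 13365 genes called, 13.3% as rising and 16.7% as falling, 59 of 78 members rose and 0 fell. Of short transcripts, 32.9% rose and 2.72% fell. Mrpl54 rose by 0.13 ± 0.015 log2 units per SD (limma adjusted p = 1.86e-11), Mrps36 by 0.16 ± 0.018 (limma adjusted p = 2.13e-11) and Mrps16 by 0.13 ± 0.015 (limma adjusted p = 2.34e-11). With the balance as a covariate the slope of Mrpl54 was 0.09 (limma adjusted p = 0.0422), and with the oxidative phosphorylation score that of Mrps36 was 0.08 (limma adjusted p = 0.00506). This relation fell further than the one above once the balance of short and long transcripts was taken into account. The cytosolic score itself had r = 0.785 with the balance. Given the balance, the r of the scores was 0.303. With the balance as a covariate 5 members passed, where 1.24% of all genes did, and 2.94% of short transcripts rose. With the oxidative phosphorylation score as a covariate 17 passed, 15 rising and 2 falling. Over all 13365 genes 1061 rose and 1497 fell in that fit, 19.1% in all against 21.8% of members. The scores of cytosolic ribosomal and oxidative phosphorylation genes had r = 0.701 with each other.

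**Figure D4:**
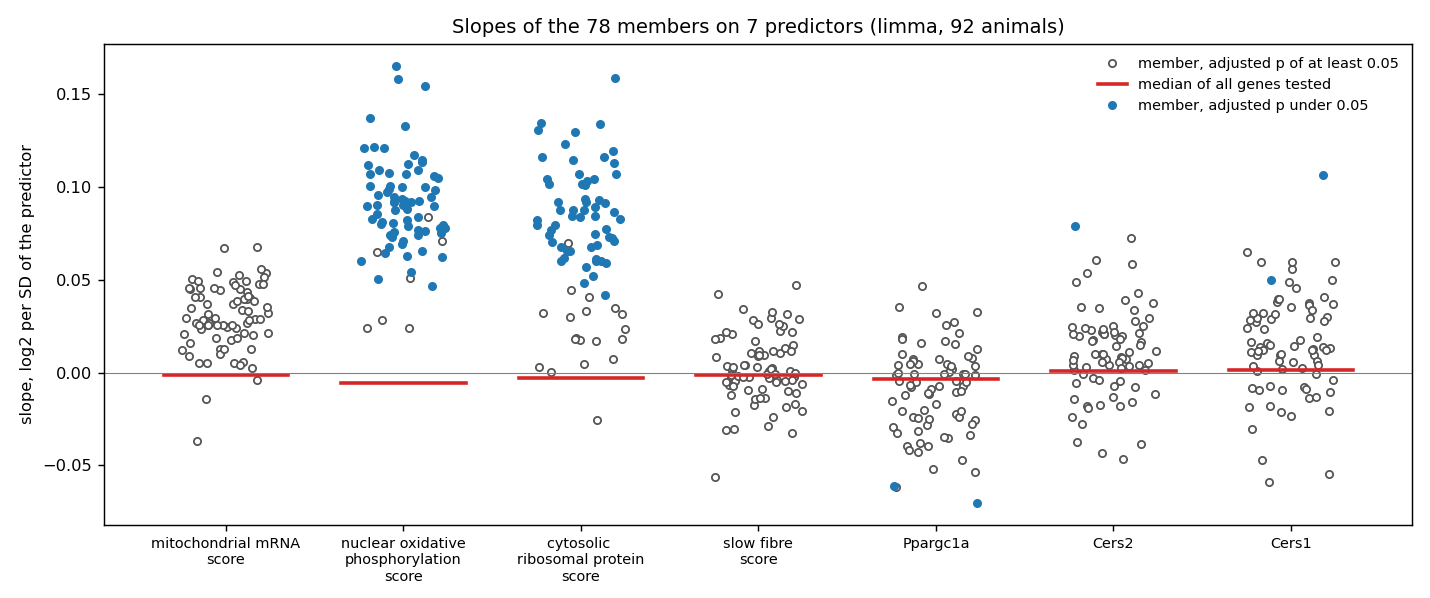
Slope of each of the 78 members (points, spread sideways for visibility) on 7 predictors, in log2 units per SD of the predictor (vertical axis), from limma over 92 animals; filled points have an adjusted p under 0.05 and red bars are the median of all genes tested. Filled points number 71 for the oxidative phosphorylation score and 59 for the cytosolic ribosomal score, and 0 to 2 for the other 5 predictors.

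The slow fibre markers and the coactivator Ppargc1a had little correlation with the members. The slow fibre score had r = 0.0292 with the members' score, or -0.0387 given the balance of short and long transcripts. In limma 0 members passed, where 0.491% of genes did. At an unadjusted p under 0.05 were 3 of 78 members and 1121 of 13432 genes, and 0 members without the animal at 3.64. The 9 fast fibre markers, Myh4 and Actn3 among them, had a score with r = 0.460, or 0.212 given the balance of short and long transcripts. Ppargc1a, which encodes a coactivator of mitochondrial genes, had r = -0.0932 with the score, and 0.157, with the sign turned, given the balance. In limma 7.43% of genes passed for Ppargc1a, 3.14% as falling, and 2 members did, both falling: Mrpl57 by 0.06 ± 0.019 per SD (limma adjusted p = 0.0378) and Mrpl53 by 0.07 ± 0.022 (limma adjusted p = 0.0384). Neither passed with the blocks as a covariate, with the balance of short and long transcripts, or without the animal at 3.64. Markers of the other cell types in muscle had r with the members' score of -0.255 for fibroblasts, -0.221 for macrophages, -0.191 for adipocytes, -0.258 for blood, -0.112 for endothelium and -0.0860 for Schwann cells. Given the balance of short and long transcripts these were -0.355, -0.404, -0.190, -0.156, 0.104 and -0.156, in the same order, so endothelium moved to the other side of 0. With these 6 scores as covariates 69 members passed for the oxidative phosphorylation score, where 24.1% of all genes did. In bulk tissue, fewer cells of a type and less RNA per cell cannot be told apart.

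The ceramide synthase genes concern the study's subject. Cers2 makes very long-chain ceramides, and Cers1 is the main ceramide synthase of muscle. The members' score had r = 0.103 with Cers2 and 0.147 with Cers1. Given the balance of short and long transcripts these were -0.136, with the sign turned, and 0.102. For Cers2, 1 member passed in limma, where 7.96% of genes did, 4.08% as rising: Mrpl9, a large subunit protein, rose by 0.08 ± 0.019 log2 units per SD (limma adjusted p = 0.0081), with a lowest value of 4.66, a median of 5.15 and a highest of 5.61. For Cers1, with 4.87% of genes called, 2.77% as rising, 2 members rose. Mrps10, the weakly connected small subunit gene, rose by 0.11 ± 0.028 (limma adjusted p = 0.0142) and Mrpl10 by 0.05 ± 0.015 (limma adjusted p = 0.0392), the latter not past the threshold without the animal at 3.64 (limma adjusted p = 0.0711) or without the 2 animals farthest from the Cers1 median (0.147). The 2 rising members are 2.56% of 78, near the share of all genes that rose. For Cers2 the share of members was under that of all genes. With the 6 other-cell marker scores as covariates it was still 1 member, where 0.298% of genes passed, a drop from 1070 to 40 genes. In that fit 74 of 78 member slopes were above 0, against 50.9% of all genes, 23 members and 2094 of 13440 genes had an unadjusted p under 0.05, and Mrpl9 had a slope of 0.13. Markers of other cell types rose with Cers2, at 6 of 8 for macrophages, 6 of 8 for fibroblasts, 4 of 7 for Schwann cells and 2 of 10 for adipocytes, but at 0 of 8 for endothelium and 0 of 6 for blood. Their part in the members' values was tested only through these covariates.

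No member passed a test between the title-number blocks. In a limma F test over the 5 blocks, 0 of 78 members and 0.0149% of 13441 genes passed. At an unadjusted p under 0.05 there was 1 of 78 members, Mrpl43 (limma adjusted p = 0.442), where 8.33% of genes were, and no other setting tried for this test called a member. The mean score of a block lay between -0.45 and 0.38.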

How the data were processed

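Messenger RNA libraries for sequencing were made from 500 ng of quadriceps RNA of each of 92 mice with a KAPA mRNA kit, per the labels' protocols. The submitters' processing notes name bcl2fastq, MultiQC, kallisto 0.50.1, edgeR and mm10, without roles. The deposited table holds log2 expression values that the authors made, which no header explains. From the values they are on a per-million scale. Of 13456 lines, 15 repeats were removed. Coordinates and lengths are from GENCODE M21 (the same build as mm10), promoters from RefSeq (GRCm38.p6).

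Associations were fitted with limma 3.58.1 in R 4.3.3 (slope on a standardised predictor, two-sided, Benjamini-Hochberg adjustment, threshold 0.05, predictor genes left out) and tested on simulated data. The SD trend is a lowess over all genes (fraction 0.3). Descriptions used Python 3.11.15, numpy 2.4.6, scipy 1.17.1 and pandas 2.3.3. Named members were the extremes of level, spread, gap and correlation and the first 3 per direction of each test. Members and lists were chosen with earlier results of these data known. Alternatives were blocks as covariate, a pseudocount of 1, a mean filter of 1, marker scores, short-against-long balance, centring, rank-based predictors and left-out animals.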

Additional observations from a re-analysis of the deposited data

How the results depend on the processing

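Of 105 alternative values of the main results 88 stayed close to the main value (counts) or moved by less than the error of that value. Some of these could not move. The mean filter of 1 keeps every member, whose lowest mean was 3.17, so it leaves their pair r, first component and SD as they were. Others were counts of 0 that stayed 0. In residuals on the short-against-long balance the median pair r was 0.131, the first component 16.3%, the median SD 0.16 and its log2 ratio to the trend -0.48. The median SD was 0.18 in residuals on the 6 marker scores and 0.18 from the median absolute deviation. With the balance as a covariate 34 members passed for the oxidative phosphorylation score (543 genes), 5 for the cytosolic ribosomal score (166 genes) and 0 for Ppargc1a (638 genes). For Ppargc1a the count was also 0 with title-number blocks (3.71% of genes), 0 with centred samples (7.13% of genes), 1 without the 2 farthest animals (6.82% of genes) and 6 with normal scores (12.3% of genes). Added after seeing the data were the joint fits of both scores, with 44 members for oxidative phosphorylation (828 genes) and 17 for cytosolic ribosomal proteins (2558 genes), and a fit without the animal with the largest balance, which gave 67, 54, 0 for Ppargc1a and 1 for Cers1 (15.8%, 25.4%, 5.97% and 4.13% of genes). The causes were not tested. Of 105 values of named members in the tests 94 kept their call, 11 lost it and 0 reversed. No paired analysis was possible because all animals form 1 group. Depth is unknown, so the part of counting error in each member's spread was not tested.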
